A study of Mus musculus with 3 samples.

Results

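The genes described here encode the potassium channels that are not classical voltage-gated channels, together with the small proteins that attach to potassium channels. They were chosen by name, as the inward rectifiers (Kcnj), the K2P or two-pore channels (Kcnk), the calcium-activated SK and IK channels (Kcnn) and the BK channel with its beta subunits (Kcnma and Kcnmb). The sodium-activated channels (Kcnt), Slo3 (Kcnu), the KChIPs (Kcnip), the Kv beta subunits (Kcnab) and the KCNE subunits (Kcne) completed the set. The names gave 52 genes of the 52636 in the count table, all of them protein-coding. The remaining 42 protein-coding genes whose names begin with Kcn, mostly voltage-gated channels, were left aside.

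RNA-Seq was performed on cells sorted from the hippocampus of male C57BL/6J mice aged 28 to 32 days. The mice were Camk2a-Cre +/-, Ai14 +/-, so that tdTomato was expressed wherever the Camk2a promoter of the T29-1 line had driven Cre recombination of the Ai14 reporter. Hippocampi were digested with papain, live tdTomato-positive cells were collected, and each of 3 biological replicates pooled the cells of 2 to 4 mice. The 3 replicates form a single group with no other genotype, treatment or age, and levels were therefore compared between genes and not between conditions.

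Potassium channels return the membrane towards a negative potential, and the classes differ in what opens them. Inward rectifiers pass current near rest and are opened by G protein beta-gamma subunits (the GIRK channels) or closed by ATP (the KATP channels). Two-pore channels carry leak current, BK and SK channels respond to intracellular calcium, and Slack and Slick respond to intracellular sodium. KChIPs assemble with Kv4 channels, which carry the A-type current that CA1 pyramidal dendrites are known for, Kv beta subunits assemble with Kv1 channels, and KCNE subunits with Kv7 and related channels.

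The coding sequence of the selectivity filter is shown because it separates the pore-forming members from the accessory ones, and because it differs between the classes compared below. It was searched for in the longest complete coding sequence of each gene in GENCODE vM21, as a threonine or serine codon, any codon, a glycine codon, a tyrosine, phenylalanine or leucine codon and a further glycine codon. All 23 pore-forming members outside the two-pore class held 1 match, the 14 two-pore members held 2 each, and the 15 accessory members held 0. A match was found in 5.42% of the 21488 coding genes searched. Each run below has 27 bases, 5′ to 3′ on the coding strand, with the glycine, middle and glycine codons in capitals and coordinates in GRCm38.
Kcnj9 (GIRK3, chr1:172326178-172326204, minus strand): gagaccaccatcGGCTATGGGcaccgg
Kcnj3 (GIRK1, chr2:55437621-55437647, plus strand): gaggccaccatcGGCTATGGCtaccgc
Kcnj6 (GIRK2, chr16:94832771-94832797, minus strand): gaaaccaccatcGGTTATGGCtaccgg
Kcnj11 (Kir6.2, chr7:46099490-46099516, minus strand): caggtgaccattGGTTTCGGCgggcgc
Kcnk1 (TWIK-1, second filter, chr8:126025323-126025349, plus strand): ctgagcaccatcGGCCTGGGGgactat
Kcnk2 (TREK-1, second filter, chr1:189256575-189256601, minus strand): ctgacgaccattGGATTTGGAgactac
Kcnma1 (BK alpha, chr14:23528407-23528433, minus strand): atgtctacagtgGGTTATGGGgacgtt
Kcnn1 (SK1, chr8:70850651-70850677, minus strand): ttcttgtccattGGCTATGGAgacatg
Kcnt1 (Slack, chr2:25894361-25894387, plus strand): ttctcaactgtgGGCTTCGGTgatgtg

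All 9 runs lie within a single coding exon. The middle codon was a tyrosine codon in 13 of 15 inward rectifiers and a phenylalanine codon in the other two, the KATP members Kcnj11 and Kcnj8. It was also a phenylalanine codon in Kcnt1, Kcnt2 and Kcnu1. In the two-pore class the first filter had a tyrosine codon in 11 genes and a phenylalanine codon in Kcnk2, Kcnk12 and Kcnk13. The second filter had a phenylalanine codon in 11 two-pore genes and a leucine codon in Kcnk1, Kcnk6 and Kcnk7. The first filter of all 14 two-pore genes crossed an exon junction and is not printed for that reason.

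Libraries held 15833075 to 48159841 assigned counts. Levels are given as TPM over nuclear protein-coding genes, which scales counts per kilobase of merged exons to a fixed sum, and errors are the SD over the 3 replicates. The labelled cell type was checked with marker genes. All 7 CA1 pyramidal markers found in the table had at least 1 CPM (counts scaled to library size) in every library, with a summed level of 1549 to 1701 TPM. The 6 dentate granule markers also passed in full, at 985 to 1106 TPM, as did the 8 oligodendrocyte markers at 811 to 905 TPM, and the cells are called tdTomato-positive cells here for that reason. In such a sorted population, fewer cells of a type and less RNA per cell cannot be told apart.

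Of the 52 members, 32 (61.5%) had at least 1 CPM in all 3 libraries and are called detected. The same threshold was passed by 57.0% of nuclear protein-coding genes and by 30.3% of all genes. With 1 TPM in all 3 libraries as the minimum, 35 members (67.3%) passed, against 60.1% of nuclear protein-coding genes. The shares of the members thus lay a few points above those of protein-coding genes in general. Mean levels were above 100 TPM for 9 members, between 10 and 100 TPM for 18, between 1 and 10 TPM for 10 and under 1 TPM for 15. The median level of the detected members was 42.6 TPM, beside 37.6 TPM for all detected nuclear protein-coding genes.

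The summed level of the members was 3118, 3118 and 3125 TPM in replicates 1, 2 and 3. Accessory subunits made up 44.8% ± 0.909 of it and inward rectifiers 31.2% ± 0.302 (SD, n = 3). Two-pore channels followed with 15.8% ± 0.463, calcium-activated channels with 5.52% ± 0.411 and sodium-activated channels with 2.45% ± 0.322, and Slo3 held 0.239% ± 0.0495 (SD, n = 3). The order of the classes was the same in every replicate. The sum was concentrated in few genes, with 41.8% in Kcnab2, Kcnip2 and Kcnj4 and 76.9% in the 10 highest members. The same 14 genes ranked highest in each of the 3 replicates.

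**Figure D1:**
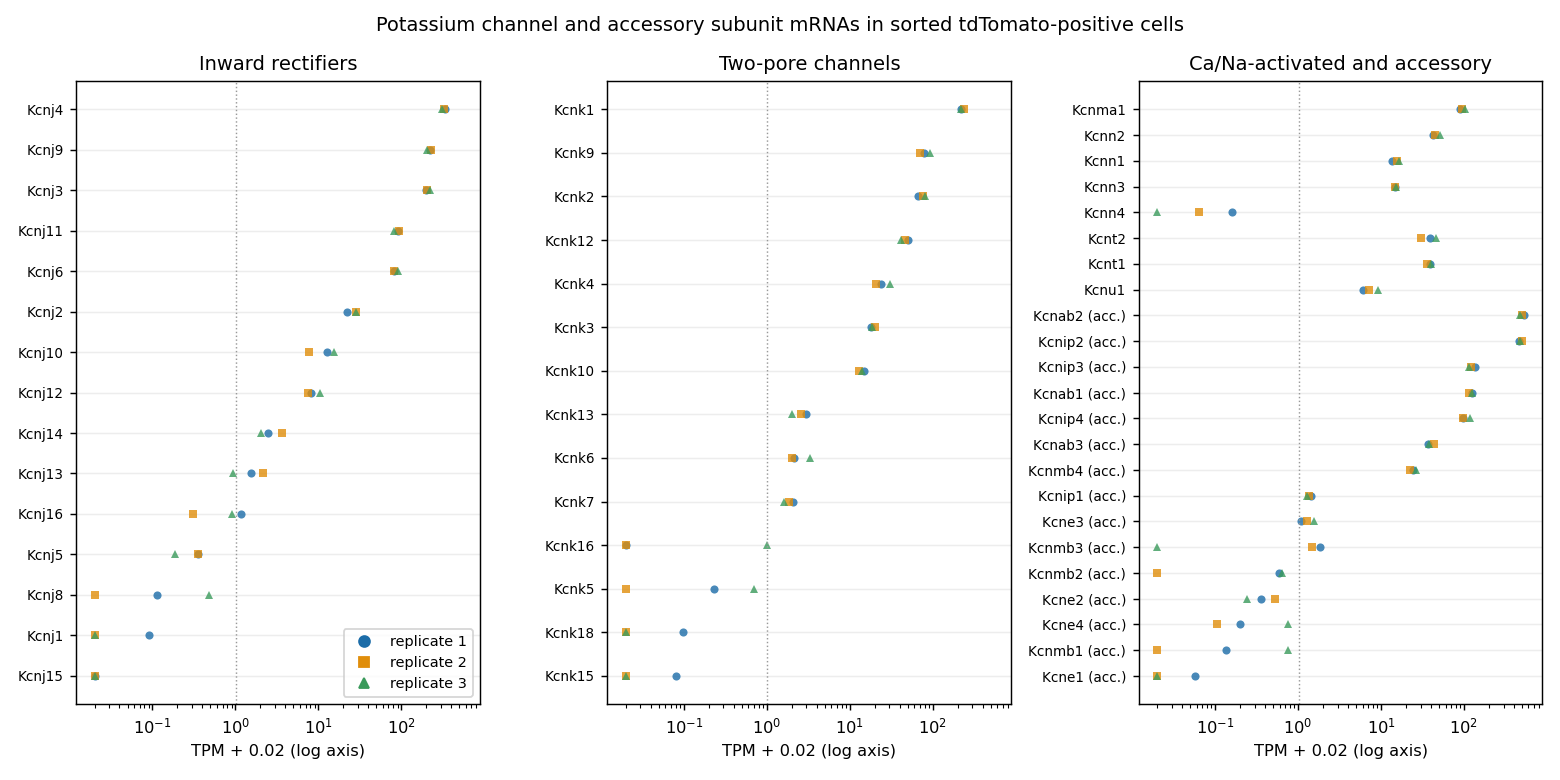
Level of each of the 52 members in each replicate, as TPM over nuclear protein-coding genes plus 0.02 on a log axis, so that a value of 0 sits at the left edge. Points are replicates, "acc." marks accessory subunits and the dotted line marks 1 TPM. Replicates lie close together above 10 TPM and spread apart below 1 TPM.

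**Figure D2:**
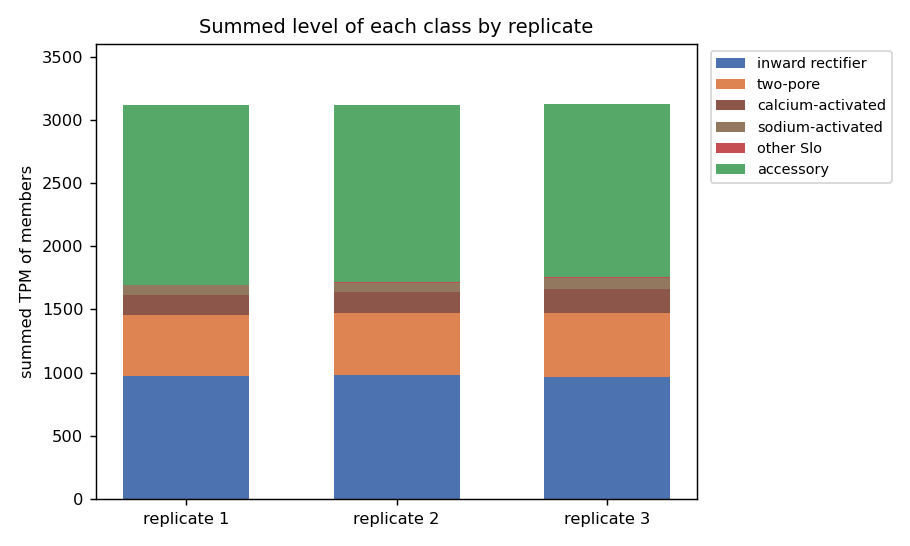
Summed TPM of the members in each replicate, stacked by class, with the accessory class on top. The bars reach 3118, 3118 and 3125 TPM, and accessory subunits and inward rectifiers fill most of each bar. Slo3, labelled other Slo, is too small to see clearly.

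Among the inward rectifiers, the strong rectifier Kir2.3 and the GIRK subunits GIRK3 and GIRK1 were the most abundant. Kcnj4 (Kir2.3), which helps to hold the resting potential, was measured at 335, 326 and 311 TPM in replicates 1, 2 and 3. The other detected members of its subfamily were far lower, with 22.4, 28.3 and 28.1 TPM for Kcnj2 (Kir2.1) and 8.07, 7.49 and 10.6 TPM for Kcnj12 (Kir2.2). Kcnj4 exceeded Kcnj2 12.4-fold (11.0 to 15.0 over the replicates) and Kcnj12 37.6-fold (29.4 to 43.5), and their ranges did not overlap. Kcnj14 (Kir2.4) was not detected, with 56, 43 and 14 counts.

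The detected GIRK genes were Kcnj9 (GIRK3) at 220, 225 and 202 TPM, Kcnj3 (GIRK1) at 198, 206 and 223 TPM and Kcnj6 (GIRK2) at 80.9, 82.7 and 90.9 TPM. GIRK1 requires another GIRK subunit to reach the membrane, and GIRK3 binds the sorting protein SNX27. Kcnj9 and Kcnj3 were not separable, since Kcnj9 was higher in replicates 1 and 2 and Kcnj3 in replicate 3. Kcnj3 exceeded Kcnj6 in every replicate, 2.46-fold on average (2.44 to 2.49), and this ratio varied little between replicates. The fold fell to 1.54 when the longest transcript was used as the length of each gene, because the merged exons of Kcnj6 are longer than its longest transcript. In addition, 31.1% of the exon bases of Kcnj3 are shared with Gm26794 on the opposite strand, and the strand setting of the counting is not stated. Kcnj5 (GIRK4), the partner of GIRK1 in the atrium, had 13, 7 and 2 counts and was not detected.

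The genes through which GIRK channels are reached were present alongside them. The GABA-B receptor subunits Gabbr1 and Gabbr2 were at 469 ± 19.0 and 262 ± 6.85 TPM, the adenosine receptor Adora1 at 199 ± 18.5 TPM and the serotonin receptor Htr1a at 63.4 ± 2.25 TPM (SD, n = 3). The muscarinic receptor Chrm2 was low, at 1.38 ± 0.430 TPM. All 8 receptors and regulators of this list were detected, among them Snx27 at 84.6 ± 3.19 TPM and the G protein subunit Gnb5 at 167 ± 10.6 TPM (SD, n = 3).

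The KATP channel was represented by 1 of its 2 pore genes. Kcnj11 (Kir6.2) was measured at 92.1, 92.7 and 80.9 TPM, while Kcnj8 (Kir6.1) had 2, 0 and 3 counts. Their sulfonylurea receptors divided in the same manner, with 74.6, 77.9 and 77.9 TPM for Abcc8 (SUR1) and 0.301, 0.433 and 0.602 TPM for Abcc9 (SUR2), which was not detected. Kcnj11 and Kcnj6 lay next to each other in the order of inward rectifiers, and the higher of the pair changed between replicates.

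Kcnj10 (Kir4.1), known for potassium uptake by astrocytes, was detected at 12.7, 7.75 and 15.3 TPM and had the largest spread of the 32 detected members. Its coefficient of variation (CV) over counts normalized by size factors was 30.4%, against 6.13% from counting error and a median of 8.76% over detected members. Its assembly partner Kcnj16 (Kir5.1) was not detected, with 38, 5 and 9 counts. Both were lowest in replicate 2. The astrocyte markers were also lowest in replicate 2, with sums of 260, 162 and 327 TPM in replicates 1, 2 and 3. Of these 7 astrocyte markers 6 were detected and none was at 0. The summed interneuron (94.5, 72.5 and 115 TPM), dentate granule (1106, 985 and 1077 TPM) and oligodendrocyte precursor markers (17.1, 6.35 and 12.9 TPM) were also lowest in replicate 2. Kcnj16, at 1.16, 0.288 and 0.887 TPM, was highest in replicate 1, as were the dentate granule and precursor sums. Kcnj10 and the astrocyte and interneuron sums were highest in replicate 3. The part of any of these cells in the levels of Kcnj10 and Kcnj16 was not tested. Kcnj13 (Kir7.1) had 16, 12 and 3 counts, and 49.1% of its exon bases are shared with Gigyf2 on the opposite strand. Kcnj1 (Kir1.1) had 2 counts in replicate 1 alone. Kcnj15 (Kir4.2) had no count in any library, which allows up to 0.0536, 0.101 and 0.173 TPM in replicates 1, 2 and 3 from counting error alone.

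Kcnj9 and Kcnj10 are adjacent on chromosome 1, on opposite strands and 11.9 kb apart with no protein-coding gene between them. Kcnj9 exceeded Kcnj10 18.7-fold (13.1 to 29.1 over the replicates). Kcnj16 and Kcnj2, 38.2 kb apart on chromosome 11, differed in the same manner, with Kcnj2 39.2-fold higher (19.3 to 98.5), although this fold rests on the few counts of Kcnj16. The 250 bases before the start of the first pair are shown from RefSeq on GRCm38.p6, 5′ to 3′ on the strand of each gene, with CG in capitals. The pair was chosen after its levels were seen.
Kcnj9 (chr1:172329323-172329572, minus strand): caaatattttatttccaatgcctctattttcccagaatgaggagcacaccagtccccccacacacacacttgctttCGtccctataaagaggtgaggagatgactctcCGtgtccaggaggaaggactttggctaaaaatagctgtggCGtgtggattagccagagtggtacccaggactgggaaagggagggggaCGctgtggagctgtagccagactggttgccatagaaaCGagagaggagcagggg
Kcnj10 (chr1:172340960-172341209, plus strand): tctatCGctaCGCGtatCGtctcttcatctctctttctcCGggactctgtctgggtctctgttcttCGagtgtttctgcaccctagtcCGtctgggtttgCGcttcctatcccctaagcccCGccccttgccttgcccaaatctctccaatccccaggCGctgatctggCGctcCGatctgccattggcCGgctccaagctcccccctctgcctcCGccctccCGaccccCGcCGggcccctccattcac

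The window of Kcnj9 held 5 CG pairs and that of Kcnj10 held 17, so that the more abundant of the pair had the fewer. The pair on chromosome 11 went the other way, with 14 in the window of Kcnj2 and 7 in that of the less abundant Kcnj16. Over the 42 members with a RefSeq window, at least 10 CG pairs stood in 16 of 24 detected members and in 3 of 18 others, beside 40.2% of 27025 genes. These 27025 genes were not divided by detection, so whether the difference is particular to the members was not tested. Where a gene had several starts, the window with most CG pairs was taken. The highest counts of CG were in Kcnmb4 with 43 and Kcnj4 with 35, while Kcnk1, the most abundant two-pore gene, had 0 in its window.

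The two-pore class was led by Kcnk1. Kcnk1 (TWIK-1) was measured at 220, 236 and 222 TPM and contributed 46.0% of the summed level of the class. The next detected genes were Kcnk9 (TASK-3), an acid-sensitive leak channel, at 78.3, 70.0 and 92.0 TPM and Kcnk2 (TREK-1), a channel opened by membrane stretch and lipids, at 65.8, 75.8 and 80.4 TPM. Kcnk1 exceeded Kcnk9 2.84-fold, with a log2 ratio of 1.51 ± 0.24 (SD, n = 3), and the ranges did not overlap. Kcnk9 and Kcnk2 were not separable, since Kcnk2 was the higher in replicate 2.

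The level of Kcnk9 depends on the length used. The table gives this gene 1209 bp, while its exons in GENCODE vM21 cover 12300 bp, so its reads were counted over a small part of the annotated transcript. With the longest transcript as the length of every gene, 12300 bp for Kcnk9, its level was 6.08 in place of 80.1 TPM. This value divides counts taken over 1209 bp by the longer length, and it also reflects the changed lengths of all other genes. Kcnk9 then stood below Kcnk2 and Kcnk3. Of the 52 members, 42 had the same length in the table as in GENCODE vM21, 9 had a shorter one and 1 a longer one. For Kcnk2, 12.2% of the exon bases are shared with A430027H14Rik on the opposite strand.

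The remaining two-pore genes were lower. Kcnk12 (THIK-2) was at 50.5, 45.8 and 41.5 TPM, Kcnk4 (TRAAK) at 23.7, 20.6 and 31.0 TPM, and Kcnk3 (TASK-1) at 18.0, 20.1 and 18.7 TPM. Their order was the same in every replicate, but with the longest transcript as length Kcnk4 fell below Kcnk3, at a log2 ratio of -0.24 in place of 0.39. Kcnk4 was counted over 1715 bp, while its exons in GENCODE vM21 cover 4465 bp and its longest transcript has 2537 bp. As for Kcnk9, this setting divides counts taken over the shorter length by the longer one. Kcnk10 (TREK-2) followed at 14.8, 13.0 and 13.9 TPM, and was exceeded by its relative Kcnk2 5.33-fold (4.46 to 5.85). This fold was 6.27 with the longest transcript as length. Kcnk13 (THIK-1), the main two-pore channel of microglia, and Kcnk6 (TWIK-2) were just above the detection limit, at 2.50 ± 0.489 and 2.48 ± 0.690 TPM (SD, n = 3), and were not separable. Kcnk12 exceeded Kcnk13 18.5-fold (17.0 to 20.8). Kcnk13 fell from replicate 1 to replicate 3, at 2.97, 2.55 and 1.99 TPM from 77, 35 and 16 counts. The summed microglial markers rose in the same replicates, at 30.5, 37.0 and 50.4 TPM. The part of microglia in the level of Kcnk13 was not tested. The 5 undetected two-pore genes were Kcnk7 with 21, 10 and 5 counts, Kcnk5 with 6, 0 and 6, Kcnk16 with 6 in replicate 3 alone, and Kcnk18 and Kcnk15 with 2 and 1 in replicate 1 alone.

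Among the calcium-activated channels, Kcnma1, the pore subunit of the large-conductance BK channel, was the most abundant. Its level was 90.1, 94.9 and 103 TPM, or 55.8% of the class. The SK channels, which carry the afterhyperpolarization that follows action potentials, were led by Kcnn2 (SK2) at 42.1, 44.8 and 51.2 TPM. Kcnn1 (SK1) at 13.4, 15.7 and 16.7 TPM and Kcnn3 (SK3) at 14.6, 14.9 and 15.0 TPM were not separable. Kcnn2 exceeded Kcnn1 3.02-fold (2.86 to 3.15) and Kcnn3 3.09-fold (2.89 to 3.40), and these folds were 5.30 and 4.89 with the longest transcript as length. Kcnn4 (IK) had 6, 1 and 0 counts and was not detected.

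Of the 4 BK beta subunits only Kcnmb4 (beta4), the form known from neurons, was detected, at 24.5, 22.3 and 26.6 TPM. Kcnma1 exceeded it 3.93-fold (3.68 to 4.25), and 2.70-fold with the longest transcript as length. Of the exon bases of Kcnmb4, 31.5% are shared with the antisense genes Kcnmb4os1 and Kcnmb4os2. Kcnmb3 (beta3) had 26, 11 and 0 counts, the 0 allowing up to 0.678 TPM in replicate 3. Kcnmb2 (beta2) had 15, 0 and 5 counts. Kcnmb1 (beta1), known from smooth muscle, had 4, 0 and 8 counts, and the 4 mural cell markers summed to 15.9, 20.7 and 75.9 TPM in the same replicates. Its share of counts from such cells was not tested. Among the BK gamma subunits, Lrrc26 was at 59.7 ± 6.70 and Lrrc55 at 25.0 ± 3.00 TPM (SD, n = 3), while Lrrc38 had 1 count in all and Lrrc52 had 0.

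Both sodium-activated genes were detected at like levels. Kcnt2 (Slick) was at 38.6, 30.3 and 46.3 TPM and Kcnt1 (Slack) at 38.5, 35.9 and 40.2 TPM. Kcnt2 was the higher in replicates 1 and 3 and Kcnt1 in replicate 2, so that no order could be given. The CV of Kcnt2, 18.3%, was larger than that of Kcnt1, 4.60%. Kcnu1 (Slo3), a channel known from sperm, was detected at 6.07, 7.15 and 9.13 TPM from 189, 118 and 88 counts, and none of its exon bases is shared with another annotated gene.

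**Figure D3:**
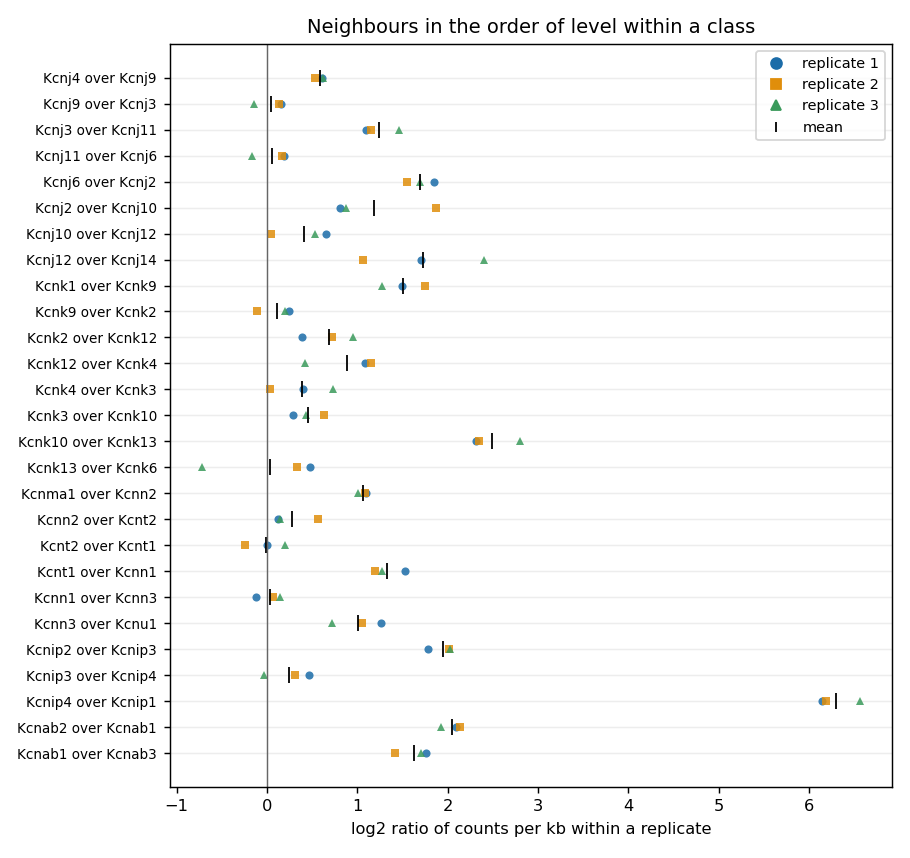
Log2 ratio of counts per kilobase for each of 27 pairs of members that stand next to each other in the order of level within their class, with the first named over the second. Points are the 3 replicates, the bar is their mean, and points to the right of 0 mean that the first gene was higher. In 20 pairs all 3 points lie on the same side of 0.

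The order within classes was assessed over these 27 neighbouring pairs, each gene with at least 10 counts in every replicate. The order was the same in all 3 replicates for 20 pairs, and the TPM ranges were apart for 18. The 7 pairs whose order changed between replicates were Kcnj9 and Kcnj3, Kcnj11 and Kcnj6, Kcnk9 and Kcnk2, Kcnk13 and Kcnk6, Kcnt2 and Kcnt1, Kcnn1 and Kcnn3, and Kcnip3 and Kcnip4. In a two-sided exact sign-flip permutation test 3 replicates cannot give a p below 0.25, so no order could pass a significance threshold and the orders are descriptions.

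The 2 most abundant members were accessory subunits. Kcnab2 (Kv beta2) was measured at 531, 504 and 472 TPM and stood at percentile 98.2 of detected nuclear protein-coding genes. Kcnab1 (Kv beta1), which confers fast inactivation on Kv1 channels, was at 124, 115 and 124 TPM, and Kcnab3 (Kv beta3) at 36.8, 43.0 and 38.2 TPM. Kcnab2 exceeded Kcnab1 4.15-fold (3.80 to 4.39) and Kcnab3 12.8-fold (11.7 to 14.5), with no overlap of ranges. These folds were 3.01 and 16.1 with the longest transcript as length. Of the 6 Kv1 genes tested as partners 5 were detected, led by Kcna2 at 109 ± 7.39 TPM, Kcna1 at 82.8 ± 5.12 TPM and Kcna4 at 64.7 ± 9.72 TPM (SD, n = 3). The summed level of the Kv beta genes was 663 ± 28.7 TPM, and that of the 6 Kv1 genes ranged from 281 to 308 TPM.

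The KChIPs together reached 708 ± 8.47 TPM (SD, n = 3). Kcnip2 (KChIP2) accounted for 67.4% of this, with 466, 495 and 470 TPM, and its range overlapped that of Kcnab2. Kcnip3 (KChIP3), also known as the calcium-binding repressor DREAM, was at 135, 122 and 115 TPM and Kcnip4 (KChIP4) at 98.2, 98.4 and 118 TPM. Kcnip3 was the higher in replicates 1 and 2 but not in replicate 3. Kcnip1 (KChIP1) was the lowest detected member, at 1.39, 1.35 and 1.25 TPM, and Kcnip2 exceeded it 359-fold (335 to 376). This fold was 264 with the longest transcript as length. Kcnip1 passed the CPM threshold with merged exons of 6200 bp, whereas Kcnj14, with 2717 bp and 2.68 ± 0.814 TPM, did not pass (SD, n = 3).

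The partners of the KChIPs were all detected. Kcnd2 (Kv4.2) was at 230 ± 22.3 TPM, Kcnd3 (Kv4.3) at 50.2 ± 2.81 TPM and Kcnd1 (Kv4.1) at 15.1 ± 1.11 TPM (SD, n = 3). Dpp6, a further subunit of Kv4 channels, was at 221 ± 7.95 TPM and its relative Dpp10 at 7.15 ± 1.23 TPM (SD, n = 3). In each of these complexes a single accessory gene stood above the others of its family in every replicate.

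None of the 4 KCNE genes was detected. Kcne3 (MiRP2) had 16, 10 and 7 counts, Kcne2 (MiRP1) 5, 4 and 1, Kcne4 (MiRP3) 4, 1 and 5, and Kcne1 (MinK) a single count in replicate 1. Their summed level was 1.99 ± 0.433 TPM (SD, n = 3). Among the Kv7 genes with which KCNE subunits can assemble, Kcnq3 was at 125, 127 and 136 TPM and Kcnq5 at 28.3 ± 1.68 TPM (SD, n = 3). Kcnq1, the partner of MinK in the heart, was not detected, with 22, 5 and 2 counts.

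**Figure D4:**
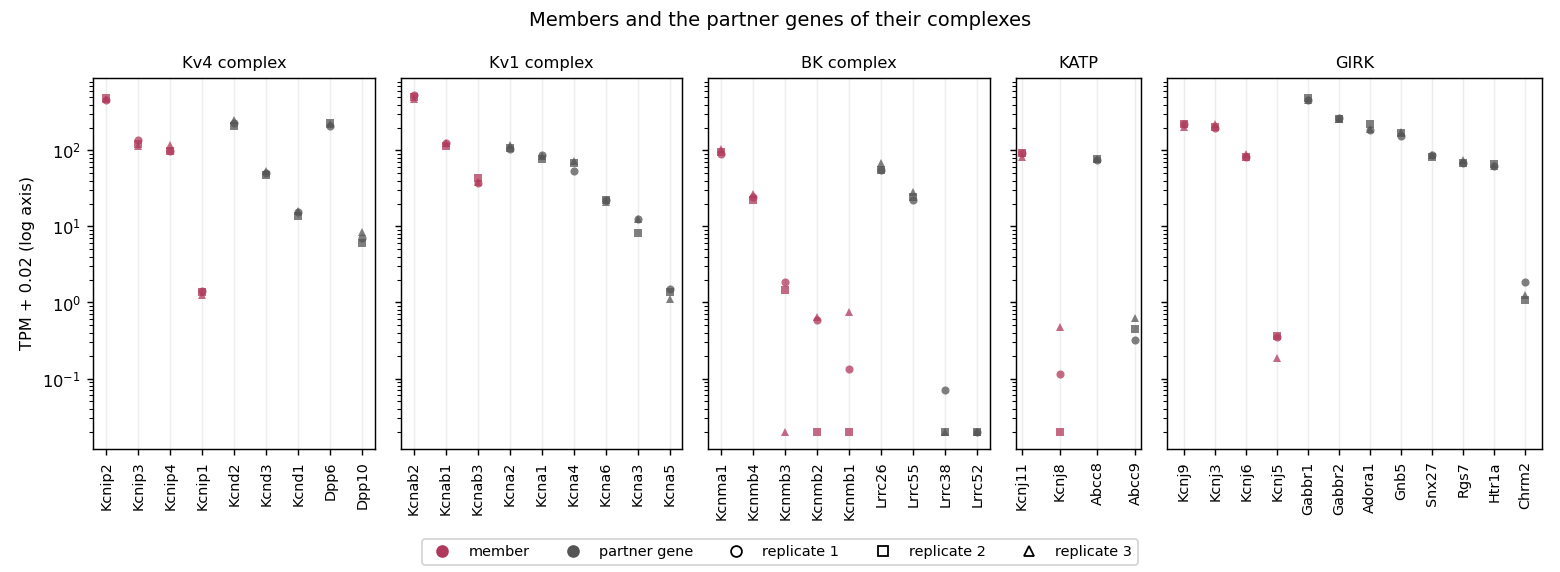
Level of members (red) and of the partner genes of their complexes (grey), as TPM plus 0.02 on a log axis, with 1 point for each replicate. Within the KATP panel Kcnj11 and Abcc8 lie near 100 TPM and Kcnj8 and Abcc9 below 1 TPM, and in the BK panel Kcnmb4 lies below Kcnma1, Lrrc26 and, in 2 of 3 replicates, Lrrc55.

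The detected members varied between replicates about as much as other detected genes. The CV of normalized counts was under 10% in 20 of the 32 detected members (62.5%), beside 58.5% of detected nuclear protein-coding genes, and its median was 8.76% for the members and 8.75% for those genes. The smallest spreads were those of Kcnj3, Kcnn3 and Kcnj6, at 2.32%, 2.41% and 2.50%. The largest were those of Kcnj10, Kcnk6 and Kcnk13, at 30.4%, 24.0% and 23.0%, of which the last 2 had 16 to 77 counts per library and a counting error of 15.4% and 17.6%. Kcnt2 and Kcnk4 came next, at 18.3% and 17.9%, and both were lowest in replicate 2 and highest in replicate 3. The summed astrocyte markers, given above, and the summed interneuron markers, at 94.5, 72.5 and 115 TPM, had the same order of replicates. Of the 7 interneuron markers 2 were detected, and Slc32a1 and Vip had 0 counts in replicates 2 and 3. The endothelial sums of 7.69, 15.0 and 64.4 TPM and the microglial sums of 30.5, 37.0 and 50.4 TPM were also highest in replicate 3 but lowest in replicate 1. The part of these cells in the levels of Kcnt2 and Kcnk4 was not tested.

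**Figure D5:**
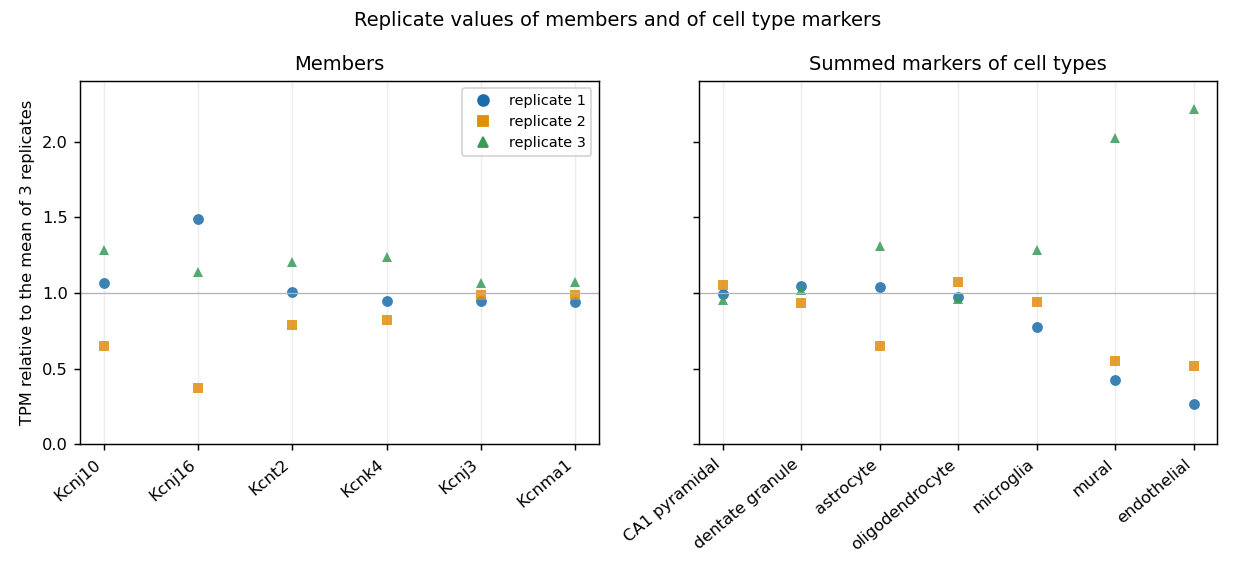
Values of 6 members and of the summed markers of 7 cell types in each replicate, divided by the mean of the 3 replicates. The horizontal line marks the mean. Kcnj10, Kcnj16, Kcnt2, Kcnk4 and the astrocyte and dentate granule markers are lowest in replicate 2. Kcnj3 and Kcnma1 stay close to the mean, and the mural and endothelial markers are highest in replicate 3.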

How the data were processed

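The authors aligned poly(A) RNA-Seq reads (150 bp, paired-end) and deposited raw counts per gene with merged exon lengths. Per the labels, STAR, featureCounts, mm10 and GRCm38 were named in the submitters' processing notes, without versions. The study's methods name GENCODE vM15 for counting its TRAP libraries, but for these libraries the annotation release, strand, multimapping and read or fragment counting were not given in the sources used here. Gene symbols were taken from GENCODE vM21 (52489 of 52636 genes matched).

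CPM used all assigned counts. TPM was computed over 21883 nuclear protein-coding genes, because short noncoding features and mitochondrial genes take an unequal part of the total. CVs used size factors of 1.78, 0.963 and 0.592 (DESeq2 1.42.0), and TMM came from edgeR 4.0.16 in R 4.3.3. Size factors were tested on simulated data. Other steps used Python 3.11.15 with pandas 2.3.3. Detection required at least 1 CPM in all 3 libraries. Between replicates, 42.6% to 49.7% of 18517 genes differed beyond counting error, so no library was counted as deposited in duplicate. No sample column was left out. Intervals for 0 counts allow 3 counts and cover counting error only.

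Members, marker lists and partner lists were chosen with earlier results of these data known. All members are accounted for. Detected members are named with values, undetected ones with counts. Proteins are not printed, and some partner genes and sequences are not reported here. Alternatives were scaling, length, pseudocount, low-count filter and leaving out each replicate.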

Additional observations from a re-analysis of the deposited data

How the results depend on the processing

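Of 702 values recomputed for 104 results, 483 moved by less than the spread between replicates, 209 moved further and 10 changed sign. Counts of members and of pairs have no such spread and were classed without it. The 209 include all 32 detected member levels under TPM over all genes and under RPKM, which rescale every level. Counting any read in at least 1 replicate as detection gave 51 members in place of 32, and leaving out each replicate gave 32 to 33. The summed level of the members was 980.5 with TPM over all genes, 528 as RPKM with TMM factors and 2919 with the longest transcript as length. These scalings other than length changed no member by over 1.5 times relative to the median. With the longest transcript as length, the shares became 28.1% for inward rectifiers, 11.7% for two-pore, 6.94% for calcium-activated and 50.4% for accessory genes, and 5 members moved by over 1.5 times relative to the median. The log2 ratio became -0.39 for Kcnj11 over Kcnj6, -3.71 for Kcnk9 over Kcnk2, -0.24 for Kcnk4 over Kcnk3 and -0.12 for Kcnn1 over Kcnn3. For Kcnk9 and Kcnk4, counts taken over 1209 and 1715 bp are here divided by 12300 and 2537 bp. This mismatch enters their ratios and the two-pore share. Without 1 replicate at a time, the log2 ratio ranged from -0.0076 to 0.14 for Kcnj9 over Kcnj3, from -0.0020 to 0.18 for Kcnj11 over Kcnj6, from -0.19 to 0.40 for Kcnk13 over Kcnk6 and from -0.024 to 0.11 for Kcnn1 over Kcnn3. The ratio of Kcnt2 over Kcnt1 turned to 0.10 without replicate 2. The first pair turned without replicate 1, the second without replicate 1, the third without replicate 1 or 2 and the fourth without replicate 3. No paired analysis was possible because the 3 replicates form 1 group. At 15833075 counts, the smallest library limits members under about 1 TPM, of which several had 0 counts.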
